A study of Homo sapiens with 23 samples.

Results

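The propionylated and the butyrylated form of lysine 18 on histone H3, H3K18pr and H3K18bu, were compared by where they lay on the genome of SW480 cells. SW480 is a cell line from a human colorectal tumour that grows as an epithelium. The 4 libraries, of 23 in the series, were chosen by their sample labels as the 2 replicates of H3K18pr from cells given 10 mM sodium propionate (NaPr) overnight and the 2 replicates of H3K18bu from cells given 1 mM sodium butyrate (NaBu) overnight. Each library was made by chromatin immunoprecipitation and sequencing (ChIP-seq) of formaldehyde cross-linked chromatin, and each has its own list of peaks, called regions here. The mark, the fatty acid and its dose differed together, and the file names place the libraries of each mark in a sequencing run of their own, so mark, treatment and run cannot be told apart. The labels do not say whether replicates came from separate cultures, so the spread between them may be technical.

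Short-chain fatty acids such as propionate and butyrate are made by bacteria of the colon and are taken up by its epithelium, which burns butyrate as fuel. Both acids can be turned into acyl-CoA and added to histone lysines by acyltransferases such as p300, and both can inhibit histone deacetylases, butyrate the more strongly. Propionyl and butyryl groups extend the acetyl group by extra carbons, and acetylation of H3K18 is a mark of active promoters and enhancers.

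The lists held 94121 and 95924 regions for replicates 1 and 2 of H3K18pr, and 22059 and 22497 for those of H3K18bu. They do not give read numbers, so depth is not known, but the strength of the weakest regions shows how unlike the lists are. The strongest 22059 regions of each library by −log10 p were therefore compared, which is the whole list of H3K18bu replicate 1. All of the 22059 regions had a q-value under 0.05 in both H3K18pr libraries, against 8485 and 9290 in the H3K18bu libraries. The median fold enrichment, the ratio of signal to local background at the summit, was 8.59 and 6.68 for H3K18pr and 3.50 and 3.53 for H3K18bu. Folds were used to rank regions within a library and not to compare the marks, since they depend on depth and on the input of each run. As a check of the cell type, the starts of 7, 5, 6 and 6 of 10 colon epithelium markers held a region in H3K18pr replicates 1 and 2 and H3K18bu replicates 1 and 2. The starts of 10 markers of blood, vessel, connective tissue, glia, heart and liver held 1, 1, 0 and 0. Of all protein-coding genes, 30.6%, 26.02%, 18.8% and 12.6% had a start that held a region in these libraries, in the same order.

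The sequence at the summit differed between the marks on average, and example windows are given first. They are 200 bp of hg38, plus strand, centred on the summit in replicate 1 of the mark (of H3K18pr for common regions), with each CG step in capitals. They come from the regions with the highest fold, by the lower of the replicates, that touch no input peak and whose window holds no annotated exon. One-sided regions were also absent from the whole lists of the other mark. A region is one-sided if both replicates of one mark and neither of the other hold it. The first H3K18pr window lies in the lncRNA gene ENSG00000259727, the second in the lncRNA gene ENSG00000276850, and the third between genes, 16255 bp from the start of IER5.
H3K18pr region 1, chr15:62896460-62896659: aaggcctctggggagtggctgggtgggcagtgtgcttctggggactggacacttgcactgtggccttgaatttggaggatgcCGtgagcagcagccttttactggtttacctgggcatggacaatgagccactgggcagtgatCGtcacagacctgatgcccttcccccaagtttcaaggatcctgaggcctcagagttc
H3K18pr region 2, chr10:47988705-47988904: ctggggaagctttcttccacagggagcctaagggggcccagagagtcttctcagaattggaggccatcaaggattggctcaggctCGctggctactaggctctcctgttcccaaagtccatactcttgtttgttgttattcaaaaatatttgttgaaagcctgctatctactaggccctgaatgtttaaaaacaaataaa
H3K18pr region 3, chr1:181104855-181105054: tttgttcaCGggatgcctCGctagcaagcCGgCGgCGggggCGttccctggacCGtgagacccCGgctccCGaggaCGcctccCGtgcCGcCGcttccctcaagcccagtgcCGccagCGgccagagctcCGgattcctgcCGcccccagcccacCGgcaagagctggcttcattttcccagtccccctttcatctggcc

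The first H3K18bu window lies 255 bp from the start of DNAAF3, inside DNAAF3-AS1. The second is in C1orf127 and the third is intergenic. Other regions, of H3K18pr and of an input, also lie within 1 kb of the DNAAF3 start, so the region and not the gene is one-sided.
H3K18bu region 1, chr19:55166877-55167076: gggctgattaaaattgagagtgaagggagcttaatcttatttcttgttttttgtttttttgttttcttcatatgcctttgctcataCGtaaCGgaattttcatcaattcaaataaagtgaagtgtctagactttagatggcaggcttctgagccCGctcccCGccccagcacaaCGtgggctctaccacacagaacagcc
H3K18bu region 2, chr1:10955856-10956055: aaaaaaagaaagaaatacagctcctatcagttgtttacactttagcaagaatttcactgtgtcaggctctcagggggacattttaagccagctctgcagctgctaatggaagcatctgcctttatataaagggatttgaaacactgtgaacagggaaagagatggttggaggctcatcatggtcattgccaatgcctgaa
H3K18bu region 3, chr4:152991751-152991950: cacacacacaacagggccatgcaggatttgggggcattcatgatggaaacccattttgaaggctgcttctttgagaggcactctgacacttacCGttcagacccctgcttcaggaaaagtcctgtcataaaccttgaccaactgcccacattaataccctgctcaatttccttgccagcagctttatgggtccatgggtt

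Of the windows held by all 4 libraries, the first is intergenic and the second lies 282 bp from the start of BTBD19.
Common region 1, chr17:43315633-43315832: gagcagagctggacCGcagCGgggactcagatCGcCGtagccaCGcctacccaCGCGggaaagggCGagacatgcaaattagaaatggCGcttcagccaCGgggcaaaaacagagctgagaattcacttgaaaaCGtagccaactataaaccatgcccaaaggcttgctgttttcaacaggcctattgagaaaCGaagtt
Common region 2, chr1:44808141-44808340: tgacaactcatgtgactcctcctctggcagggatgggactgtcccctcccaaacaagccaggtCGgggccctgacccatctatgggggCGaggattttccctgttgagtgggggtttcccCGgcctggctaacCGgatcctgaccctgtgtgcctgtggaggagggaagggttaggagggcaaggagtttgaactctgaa

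The folds in replicates 1 and 2 were 100.2 and 62.4, 82.2 and 49.0, and 63.9 and 36.2 for the H3K18pr regions, and 9.55 and 11.9, 10.3 and 9.20, and 8.61 and 10.8 for the H3K18bu regions. The common regions had 20.3, 15.7, 19.1 and 37.8, and 103, 51.3, 14.2 and 17.3, in H3K18pr replicates 1 and 2 and H3K18bu replicates 1 and 2. The 3 H3K18pr windows held 57.0%, 45.5% and 69.5% G or C with 2, 1 and 18 CG steps. The H3K18bu windows held 42.5%, 42.0% and 49.0% with 5, 0 and 1. Single windows of the marks thus overlap in composition, and the difference is one of averages. Over all 22059 summits, mean GC was 54.2% and 52.9% in the H3K18pr libraries and 48.0% and 45.3% in the H3K18bu libraries. This is 53.5 ± 0.938% against 46.6 ± 1.94% (SD, n = 2 each), a difference of 6.89 points, with the marks apart (two-sided exact permutation p = 0.333). CG steps per 200 bp numbered 6.66 and 6.07 against 3.79 and 2.42. With 2 libraries on each side 0.333 is the smallest p this test can give, and adjusting over the 4 properties tested in this way (GC, width, promoter share and summit side) leaves it unchanged. One-sided regions lay farther apart still, with GC of 55.9% and 55.3% for H3K18pr and 45.1% and 44.8% for H3K18bu, as the choice of regions held by one mark allows.

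H3K18pr formed wider domains than H3K18bu. Median width was 1221 and 910 bp in the H3K18pr libraries and 329 and 324 bp in the H3K18bu libraries, a mean of 1065.5 ± 219.9 bp against 326.5 ± 3.54 bp (SD, n = 2 each). The difference of 739 bp was larger than the spread between replicates (two-sided exact permutation p = 0.333). Regions of 2 kb or more made up 25.8% and 14.5% of H3K18pr and 1.07% and 1.17% of H3K18bu, and those of 4 kb or more numbered 1201 and 551 against 12 and 19. Among the strongest 1000 regions of each library the medians were 4166 and 3339.5 bp against 998 and 1066 bp. The shortest region was 340 and 350 bp in the H3K18pr lists and 175 and 190 bp in the H3K18bu lists, and its part in the width difference was not tested. Where a threshold of q under 0.05 replaced equal numbers, the medians were 523 and 477 bp against 524 and 484 bp and the difference was −4 bp. With all regions of each list the medians were 508 and 460 bp against 329 and 321 bp, a difference of 159 bp, and with the strongest 8000 the difference was 1319.75 bp. The greater width of H3K18pr thus held for equal numbers of regions and for whole lists, and not at q under 0.05.

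**Figure D1:**
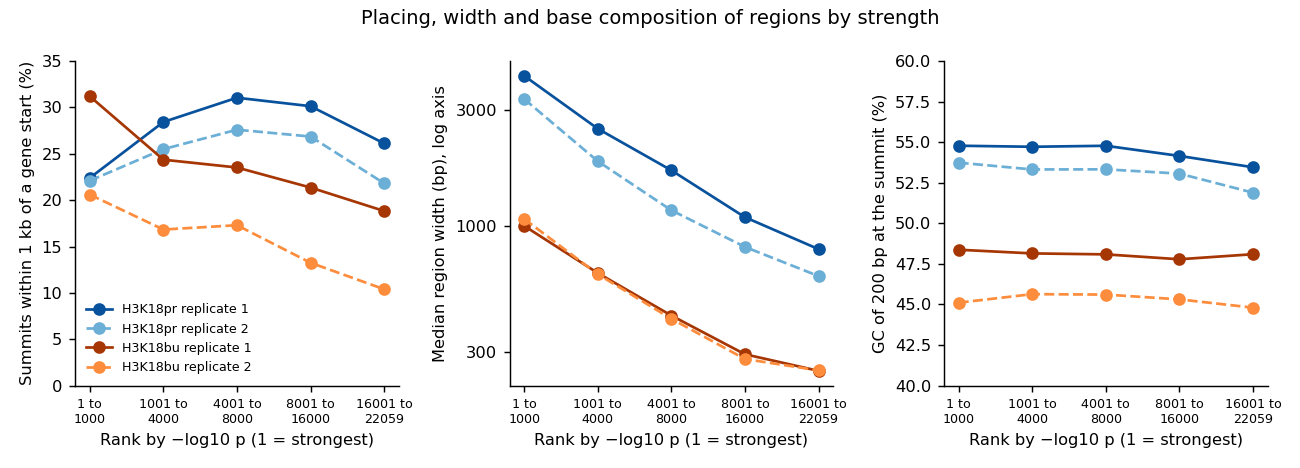
Regions in bins of rank by −log10 p (x axis, strongest at left) for the 4 libraries, as the percentage of summits within 1 kb of a gene start (left), the median width in bp on a log axis (middle) and the mean GC of 200 bp at the summit (right, axis from 40%). Width and GC of the H3K18pr libraries (blue) lie above those of the H3K18bu libraries (orange) in every bin, while promoter share is 22.4% and 22.1% against 31.2% and 20.6% in the strongest 1000.

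Promoters were defined as 1 kb either side of the 5′ end of 20033 protein-coding and 18866 lncRNA genes of GENCODE 44. Of the summits, 28.6% and 25.2% of H3K18pr and 21.9% and 14.0% of H3K18bu fell there, 26.9 ± 2.41% against 17.97 ± 5.58% (SD, n = 2 each). The difference was 8.95 points (two-sided exact permutation p = 0.333). H3K18bu had more intergenic summits (25.9% and 30.2% against 23.4% and 24.6%) and more summits over 100 kb from any gene start (6.54% and 8.05% against 4.71% and 4.83%). The promoter difference depended on how many regions were read. In the strongest 1000 regions the shares were 22.4% and 22.1% against 31.2% and 20.6%, so that the marks overlapped. With all regions of each list they were 14.9% and 12.8% against 21.9% and 13.9%. With q under 0.05 they were 15.5% and 13.8% against 24.8% and 17.1%, so the marks were apart with H3K18bu the higher.

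At protein-coding gene starts the summits of H3K18pr lay downstream more often than those of H3K18bu, which were evenly split in replicate 1 and more often upstream in replicate 2. Of the summits within 1 kb of the nearest such start, 69.7% and 67.7% of H3K18pr lay downstream of it, in the transcribed direction, against 49.4% and 41.9% of H3K18bu. This is 68.7 ± 1.41% against 45.7 ± 5.31% (SD, n = 2 each), a difference of 23.1 points (two-sided exact permutation p = 0.333). The median summit lay at 279 and 274 bp for H3K18pr, downstream of the start, and at -35.5 and -207 bp for H3K18bu, upstream of it. The bin from 250 to 500 bp downstream held 8.04% and 6.56% of all H3K18pr summits but 2.16% and 0.938% of H3K18bu summits. In the mirror bin upstream the shares were 2.93% and 2.57% against 3.73% and 2.46%, so the marks differed in the downstream peak and overlapped in the upstream one. Here a divergent partner gene can lie upstream, and each summit was assigned to its nearest protein-coding start.

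**Figure D2:**
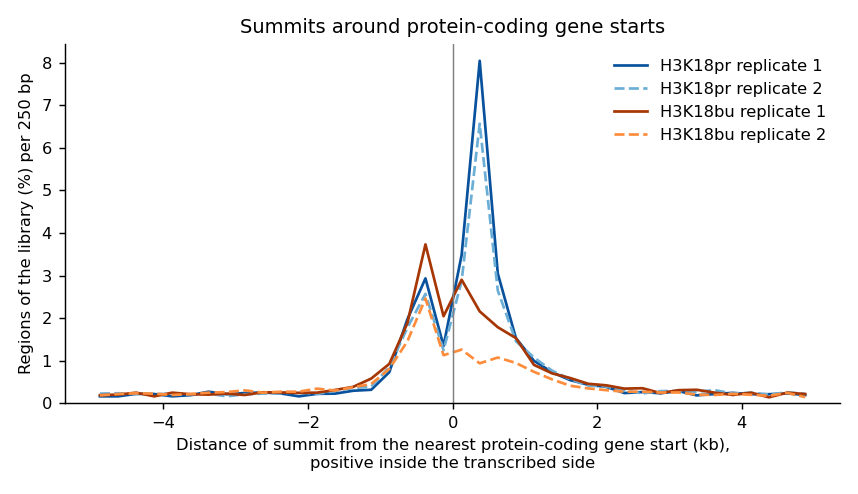
Percentage of the 22059 regions of each library (y axis) whose summit falls in each 250 bp bin around the nearest protein-coding gene start (x axis, kb, positive in the direction of transcription). Both H3K18pr libraries (blue) peak 250 to 500 bp downstream at 8.04% and 6.56%, where the H3K18bu libraries (orange) hold 2.16% and 0.938%.

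A shift of the same direction was present at the same genes. Of 1308 protein-coding genes whose start held a region in all 4 libraries, 1045 had all 4 summits inside the window. There 60.9% and 60.7% of H3K18pr summits and 41.6% and 38.9% of H3K18bu summits were downstream, with medians of 213 and 204 bp against -168 and -214 bp. Summits of the replicates lay a median of 70 bp (H3K18pr) and 71 bp (H3K18bu) apart, while those of different marks lay 256 to 412 bp apart over the 4 pairs of libraries. In these pairs the H3K18pr summit was the further downstream at 56.8% to 60.4% of the genes, so the order was the opposite or equal at the rest. The H3K18ac and H4K12 libraries had no part in choosing these genes. At those of the 1045 genes that they held, 51.1% and 45.2% of H3K18ac summits were downstream in the libraries labelled NaBu. The shares were 54.7% and 57.7% in NaPr cells and 61.3% and 61.1% in untreated cells. File names of the H3K18ac libraries labelled NaBu carry the tag of the untreated ones, against their labels. H4K12pr had 60.2% and 58.2% and H4K12bu 41.7% and 39.4%, close to the mark of the same acid on H3K18. The lists of sheared chromatin without antibody (inputs) had 41.0% (NaPr), 31.2% (NaBu) and 47.9% (untreated) of their 349, 266 and 2488 summits within 1 kb of any such start downstream, and their part in the shift was not tested.

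Merging the 4 sets wherever they shared 1 bp gave 42527 regions. Of these, 4794 (11.3%) were held by all 4 libraries, 6651 were one-sided for H3K18pr (15.6% of all) and 3571 for H3K18bu (8.4% of all). H3K18pr thus made up 65.1% of the one-sided regions (95% Wilson interval 64.1% to 66.0%, counting error only). Exactly 2 libraries held 11605 regions, and 1383 of these (11.9%) mixed the marks. With all regions of each list the H3K18pr share of one-sided regions was 92.1%, and with regions set to 500 bp around the summit it was 57.4%. Without H3K18bu replicate 1 or 2 it was 43.6% and 46.97%, where the mark left with 1 library needs only that library. Its size thus depended on list length and width, and its direction on the libraries.

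**Figure D3:**
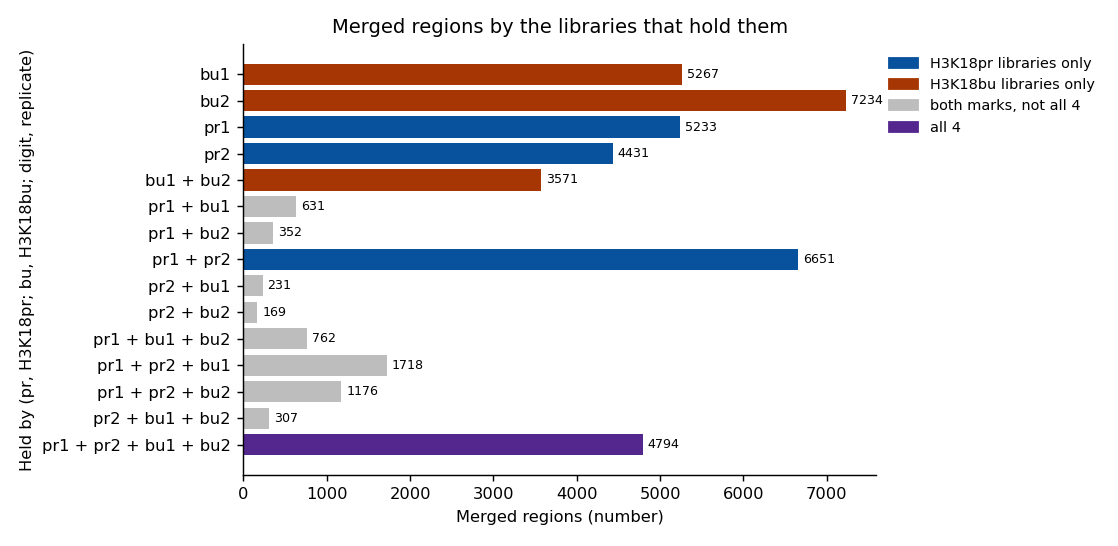
Number of merged regions (x axis) for each of the 15 combinations of libraries that can hold one (y axis, pr for H3K18pr, bu for H3K18bu, with the replicate number). Pairs of the same mark (6651 and 3571) stand above the 4 mixed pairs, which lie between 169 and 631.

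By shared length, replicates of a mark overlapped more than libraries of different marks. The Jaccard index, shared over joint base pairs, was 0.529 for the H3K18pr replicates and 0.365 for the H3K18bu replicates, against 0.133 to 0.166 across marks. Counted in regions this held for H3K18pr, with 68.1% and 76.5% of regions in the other replicate and 31.4% to 36.6% in an H3K18bu library. It did not hold throughout for H3K18bu, where 54.2% and 52.9% of regions met the other replicate and 41.2% to 55.1% met an H3K18pr library, whose regions are wider. Overlap across marks fell with strength. Of the strongest 1000 regions, 91.9% and 92.5% of H3K18pr and 91.5% and 90.2% of H3K18bu met a region of the other mark in at least 1 of its libraries. In ranks 16001 to 22059 the shares were 24.2% and 20.7%, and 45.2% and 32.3%. The strongest sites of one mark were therefore largely held by the other. Input peaks were touched by 51.1% and 45.6% (H3K18pr) and 27.7% and 26.1% (H3K18bu) of the strongest 1000. In the last ranks these shares were 14.6% and 11.3%, and 9.84% and 9.16%. The strongest regions were also wider, and the part of width and input in the overlap was not tested. Overlap with the other replicate of the same mark fell too, from 100% and 100% (H3K18pr) and 96.7% and 99.6% (H3K18bu) in the strongest 1000 to 33.4% and 48.7%, and 32.0% and 27.5%, in the last ranks. The weakest H3K18bu regions thus met H3K18pr more often than their own replicate, but these shares are not counted alike. A hit in either H3K18pr library counted, while the other replicate is a single library. The H3K18pr regions also covered 36.5 and 27.4 Mb, against 9.97 and 9.86 Mb for H3K18bu. Against a whole H3K18pr list in place of equal numbers, 53.0% to 69.8% of all H3K18bu regions met a region.

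One-sided H3K18pr regions had a median merged width of 1402 bp, 35.3% of them touched a promoter and 21.7% were intergenic. Touching counts any overlap of the merged region, unlike the summit shares above, and the part of width in it was not tested. One-sided H3K18bu regions were 488 bp wide, with 15.7% at promoters, 29.4% intergenic and 10.3% more than 100 kb from a gene start (4.24% for H3K18pr). Regions held by all 4 were 2572.5 bp wide with 32.8% at promoters. Peaks of any input were touched by 23.55% of the H3K18pr, 14.9% of the H3K18bu and 38.9% of the common regions. The H3K18bu sets were the whole list or nearly so, and longer lists existed for H3K18pr alone. In these, 1961 (54.9%) of the one-sided H3K18bu regions met no H3K18pr region and 551 (15.4%) met one in both lists, while the like count for H3K18pr regions is fixed by the list length. Of the one-sided H3K18bu regions, 41.8% and 51.6% had a q-value under 0.05 in replicates 1 and 2, against all of the one-sided H3K18pr regions.

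By the narrower of the replicates, the widest one-sided H3K18pr regions lay over the start of STK11 (chr19:1175058-1186287), over that of DCBLD2 (chr3:98894193-98904519) and between genes at chr7:157298602-157305005. In replicates 1 and 2 they measured 11029 and 9979 bp, 9213 and 6749 bp, and 6247 and 6275 bp. The widest one-sided H3K18bu regions lay over the start of ARHGEF38 (chr4:105548291-105556091), at chr19:46819041-46822605 and at chr14:55802939-55805086, with 3457 and 3856 bp, 3048 and 2412 bp, and 2148 and 1986 bp. All 3 of these also met weaker regions of a whole H3K18pr list. The regions at STK11, DCBLD2, ARHGEF38 and on chromosome 14 touched an input peak.

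Acetylation of the same lysine placed the classes apart. The strongest 22059 regions of each H3K18ac library were set against the classes, which they had no part in choosing. One-sided H3K18bu regions were found in 58.5% and 68.9% of cases in the H3K18ac libraries of NaBu cells, and in 15.5% and 9.997% in those of NaPr cells and 20.5% and 14.1% in untreated cells. One-sided H3K18pr regions were found in 48.8% and 62.4% (NaPr), 61.5% and 55.6% (untreated) and 29.6% and 21.5% (NaBu). Each class thus lay more often in acetyl libraries labelled with its own acid than in those labelled with the other, with no overlap between replicates. The replicates of H3K18ac in NaPr stood apart for the H3K18pr class (48.8% and 62.4%), and this order of the acids is the same with either of them alone. The H3K18ac libraries labelled NaBu shared the run of H3K18bu, and their file names carry the tag that the untreated libraries have, against their labels. Treatment and run therefore cannot be told apart in these values. The H3K18ac libraries of NaPr and untreated cells shared a run of their own.

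On H4K12, the strongest regions of H4K12pr held 63.0% and 57.5% of the one-sided H3K18pr regions and 6.36% and 7.14% of the one-sided H3K18bu regions. The short H4K12bu lists of 9642 and 8158 regions held 2.26% and 1.04% of the former and 29.8% and 25.9% of the latter. The one-sided regions of each H3K18 mark thus lay more often with the mark of the same acid on H4K12, which also shared its treatment and run. Regions held by all 4 libraries were found in 73.5% to 89.9% of cases in the H3K18ac libraries. Input lists at 22059 regions held 2.00%, 1.16% and 12.3% of the one-sided H3K18pr regions (NaPr, NaBu, untreated) and 1.93%, 3.30% and 3.53% of the one-sided H3K18bu regions.

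**Figure D4:**
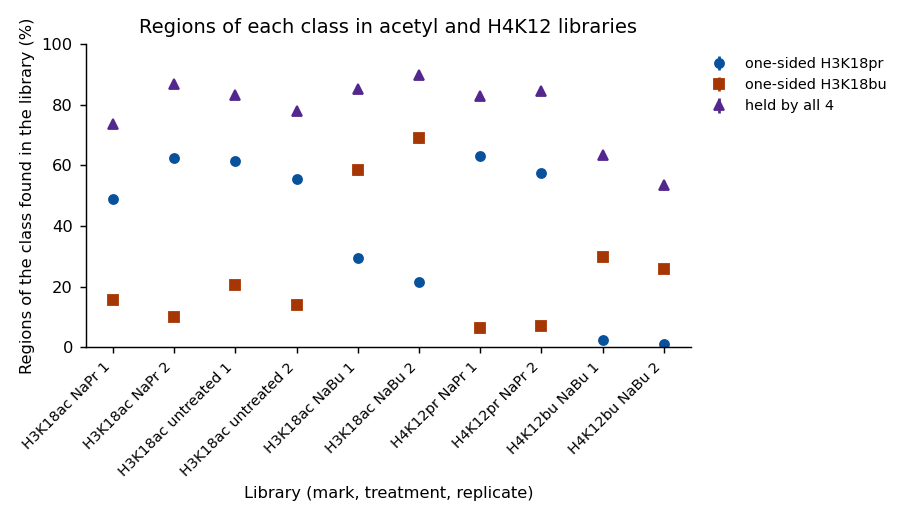
Percentage of one-sided H3K18pr (circles), one-sided H3K18bu (squares) and common regions (triangles) found among the strongest 22059 regions of each library (whole lists for H4K12bu), with 95% Wilson intervals that are mostly smaller than the symbols. One-sided H3K18bu regions reach 58.5% and 68.9% in H3K18ac labelled NaBu and stay at 20.5% or less in H3K18ac of NaPr and untreated cells.

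At gene starts, 2867 of 38899 genes were held by both H3K18pr and neither H3K18bu library (7.37%), 479 by both H3K18bu and neither H3K18pr library (1.23%), and 1998 by all 4 (5.14%). Among protein-coding genes the one-sided shares were 9.83% (1970 genes) and 1.66% (332 genes), and 6.53% (1308 genes) were held by all 4. Of the H3K18bu genes, 84 (17.5%) had no region at the start in either whole H3K18pr list, and 203 (42.4%) had one in both. Most thus had a region below the strength limit in at least 1 H3K18pr library, but fewer had one in both. The same cannot be asked of the H3K18pr genes, since the H3K18bu sets were the whole list or nearly so. An input peak lay at 34.4% of the H3K18pr and 38.4% of the H3K18bu genes. H3K18ac of untreated cells held 91.6% and 89.0% of the H3K18pr genes and 72.4% and 69.3% of the H3K18bu genes. H3K18ac labelled NaBu, with the mismatch of file names given above, held 60.6% and 39.7% against 81.8% and 84.8%.

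For H3K18pr, starts with an input peak or a region in a whole H3K18bu list were left out. The H3K18bu genes below had no such filter. Of the rest, DCBLD2, a neuropilin-like membrane receptor, and STK11, the tumour suppressor kinase LKB1, had the strongest one-sided H3K18pr regions at protein-coding starts. DCBLD2 (chromosome 3, 98795941 to 98901695) had folds of 68.3 and 40.9 in H3K18pr replicates 1 and 2, and STK11 (chromosome 19, 1177558 to 1228431) 59.1 and 36.4. Neither was held in the strongest regions of H3K18ac labelled NaBu, whereas all H3K18ac libraries of NaPr and untreated cells held both. This is within 1 kb of the start, and the whole one-sided region at STK11 met a region of all 6 H3K18ac libraries, that at DCBLD2 of 4. The stress-response factor gene NFE2L3 had 60.1 and 33.6. SYT5, a calcium sensor of vesicles, had 35.1 and 33.1, and CSRNP1, a nuclear factor, 29.2 and 33.8. The regulators ZFP36L1, which promotes decay of mRNA, and KLF4, a factor of gut epithelial differentiation, had 45.4 and 28.4, and 36.0 and 27.1. CARD19 (43.3 and 26.8), PRKAR1A, a regulatory subunit of protein kinase A (29.96 and 25.3), and the neighbours HRAS and LRRC56, whose starts share a region (39.7 and 24.8), followed.

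POU2F3, the factor that specifies tuft cells, had the strongest one-sided H3K18bu region at a start (chr11:120236640-120319945 for the gene), with folds of 17.1 and 20.9 in replicates 1 and 2. It had no region in either whole H3K18pr list, and both H3K18ac libraries labelled NaBu held it, beside replicate 2 of NaPr and of untreated cells. KNL1, a kinetochore scaffold, likewise had none in the H3K18pr lists, with folds of 8.03 and 7.49. The mitochondrial ribosome genes MRPL46 and MRPS11 shared a region (10.04 and 12.2), and CSTF2T, of the 3′ end processing machinery, had 9.46 and 12.0. ARHGEF38, a guanine nucleotide exchange factor, had 9.47 and 17.5, and ITSN1, an endocytic scaffold, 8.91 and 10.4. YJU2, a splicing factor, had 8.26 and 8.41, SLPI, a secreted protease inhibitor of epithelia, 8.56 and 8.24, and RIOK2, a kinase of ribosome assembly, 7.90 and 11.7. ARID5B (7.49 and 9.95) and R3HDM1 (7.33 and 8.20) complete the 12. The starts of ARHGEF38, ITSN1, SLPI and RIOK2 touched an input peak, and all of the 12 but POU2F3 and KNL1 had a weaker region in at least 1 whole H3K18pr list.

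RUNX2, a factor of bone formation, was named after its values were seen, as the third of the genes with no region in the H3K18pr lists. It had folds of 6.90 and 10.6 in H3K18bu, and only replicate 1 of H3K18ac labelled NaBu held it among the 6 H3K18ac libraries. TET2, which oxidises methylated DNA, followed in that order after BICRAL, with 4.86 and 4.29, over an input peak, and all 6 H3K18ac libraries held it.

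**Figure D5:**
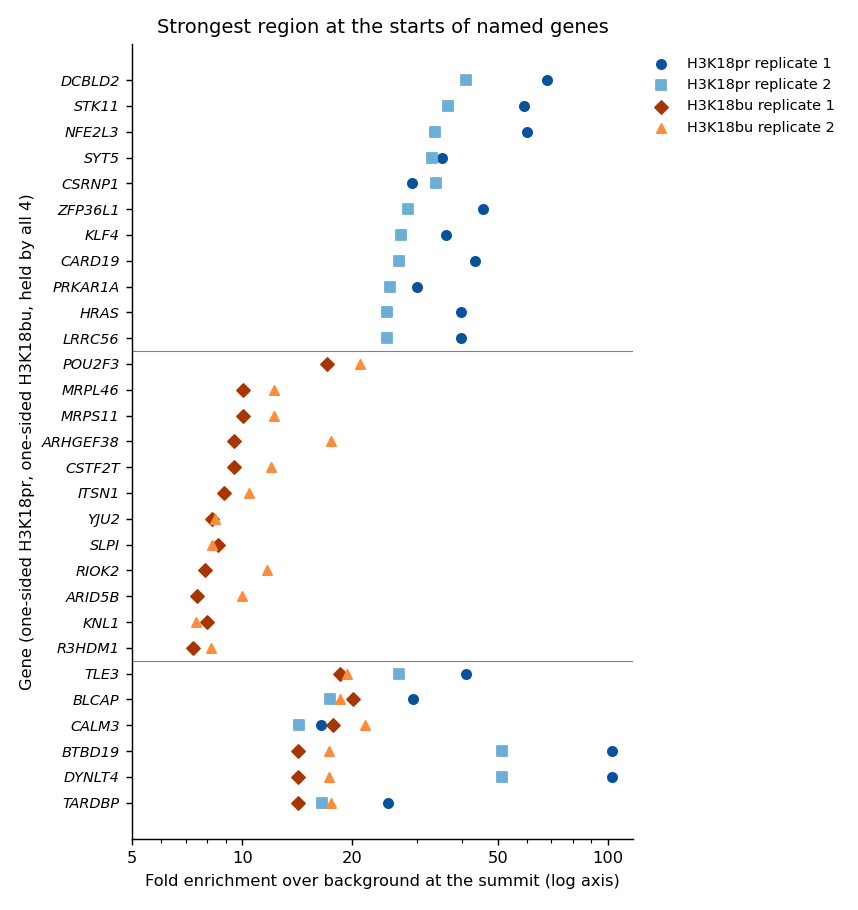
Fold enrichment of the strongest region (x axis, log scale) at the starts of 11 one-sided H3K18pr genes, 12 one-sided H3K18bu genes and 6 genes held by all 4 libraries (y axis), 1 symbol for each library that holds the gene among its 22059 regions. Folds are comparable within a library only; POU2F3 stands at 17.1 and 20.9, and the other H3K18bu genes at 7.33 to 17.5.

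Genes held strongly by all 4 were TLE3, a Groucho co-repressor, with folds of 40.8 and 26.8 in H3K18pr and 18.5 and 19.3 in H3K18bu, and BLCAP, with 29.4, 17.4, 20.1 and 18.5 in the same order. CALM3, which encodes calmodulin, had 16.4, 14.3, 17.7 and 21.7, and TARDBP, which encodes the RNA-binding protein TDP-43, 25.02, 16.5, 14.2 and 17.5 in that order. BTBD19 and DYNLT4, which share a divergent start region, had 103, 51.3, 14.2 and 17.3. All of these but BTBD19 and DYNLT4 touched an input peak.

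Focal adhesions and laminins anchor an epithelium to its matrix. Of 30 focal adhesion and laminin genes, 10 were one-sided for H3K18pr, 0 for H3K18bu and 5 were held by all 4. Of all protein-coding genes, 9.83% and 1.66% were one-sided and 6.53% were held by all 4. LAMC1, a laminin chain, had 35.6 and 19.8 in H3K18pr, ZYX (zyxin) 26.3 and 19.3, the integrin gene ITGA3 73.7 and 15.0, and the hyaluronan receptor gene CD44 15.9 and 9.35. LAMB3, ITGB4, ITGA6 and ACTN4 were among those held by all 4. Of 29 genes of epithelial junctions 6 were one-sided for H3K18pr and 0 for H3K18bu, among them DSP (desmoplakin, 29.6 and 20.4), PKP3 (plakophilin, 23.9 and 13.7) and PKP4 (12.6 and 7.79). CDH1 (E-cadherin) was also one-sided, with 10.4 and 5.44.

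In the receptor pathways, as over all protein-coding genes (9.83% and 1.66%), more genes were one-sided for H3K18pr than for H3K18bu. Of 34 TGF-β, SMAD and ID genes 8 (23.53%) were one-sided for H3K18pr and 0 for H3K18bu. The receptor genes TGFBR2 (11.1 and 11.03) and ACVR1B (11.2 and 7.17), ACVR2B (8.88 and 7.15) and the SMAD co-repressor gene TGIF2 (15.4 and 12.3) led them. Of 34 genes around the EGF receptor 6 were one-sided for H3K18pr and 0 for H3K18bu. HRAS has been given above, EGFR had 28.8 and 17.4, the feedback inhibitor gene ERRFI1 12.98 and 8.93, and the kinase gene MAP2K1 7.14 and 7.17. Of 38 Wnt genes 8 and 1 were one-sided, with TNKS (12.3 and 7.78), TLE4 (11.3 and 7.73), LRP6 (11.02 and 6.65) and FZD5 (7.29 and 6.06) for H3K18pr. FZD1, the 1 for H3K18bu, had 2.39 and 2.49, met an input peak and was present in both whole H3K18pr lists.

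Of all protein-coding genes, 60.5% had a start that held no region in any of the 4 libraries. The same was true of 3 of 18 AP-1 genes (16.7%), 10 of 17 Krüppel-like factor genes (58.8%) and 34 of 44 intestinal identity genes (77.3%). The Krüppel-like share lay near that of all protein-coding genes. Of the 18 AP-1 genes 3 (16.7%) were one-sided for H3K18pr, 1 (5.56%) for H3K18bu and 5 (27.8%) held by all 4. Over all protein-coding genes these shares were 9.83%, 1.66% and 6.53%. ATF3 (14.4 and 13.7) and MAFG (10.5 and 15.1) were among those of H3K18pr, and FOSL2, JUNB, FOS, FOSB and FOSL1 were in all 4. MAF, the 1 for H3K18bu, had 2.82 and 3.14, met an input peak and was present in both whole H3K18pr lists. Of the 17 Krüppel-like factor genes KLF4 and KLF3 (9.11 and 11.7) were one-sided for H3K18pr (11.8%), 0 for H3K18bu, and KLF6 was in all 4 (5.88%). Of the 44 intestinal identity genes 3 were one-sided for H3K18pr (6.82%, against 9.83% of all protein-coding genes). They were MUC2, the gel-forming mucin of goblet cells (29.7 and 22.6), SOX9 (41.2 and 18.8) and CDX2, the caudal factor of intestine (23.7 and 17.3). VIL1 (villin, of the brush border) was the 1 one-sided for H3K18bu, with 4.15 and 3.17, and replicate 1 of H3K18pr held it in its whole list.

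Genes that make or use acyl groups were also listed, where 9.83% and 1.66% of all protein-coding genes were one-sided for H3K18pr and H3K18bu. For H3K18pr the shares were 35.7% of acyltransferase, 11.1% of deacylase and 12.5% of short-chain fatty acid genes. The deacylase and fatty acid shares lay near 9.83%. Of 14 histone acyltransferase genes 5 were one-sided for H3K18pr and 0 for H3K18bu, with GTF3C4 (20.8 and 10.7), KAT7 (11.7 and 8.76), KAT6A (9.31 and 6.87), CLOCK (6.71 and 7.36) and EP300, which encodes p300 (6.62 and 6.23). Of 18 deacylase genes SIRT3 (18.4 and 9.96) and HDAC5 (7.84 and 7.78) were one-sided for H3K18pr and 0 for H3K18bu. Of 32 genes of short-chain fatty acid use and transport 4 were one-sided for H3K18pr. They were ACSS1, an acetyl-CoA synthetase (12.2 and 11.96), ACLY (7.33 and 7.77), the monocarboxylate transporter gene SLC16A1 (6.28 and 8.40) and HADHB of fatty acid oxidation (9.34 and 5.08). MCEE, an enzyme of propionate breakdown, was the 1 one-sided for H3K18bu (3.62 and 3.11) and was present in both whole H3K18pr lists.

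Of 32 genes of the unfolded protein response 5 (15.6%) were one-sided for H3K18pr, 1 (3.125%) for H3K18bu and 6 (18.75%) in all 4. Over all protein-coding genes these shares were 9.83%, 1.66% and 6.53%. The H3K18pr genes included EDEM1, MANF, PDIA3 and DNAJC3 at folds of 6.07 to 14.5, and the H3K18bu gene was PDIA4 (3.09 and 3.17). Of 45 cell cycle genes CDKN2B (20.7 and 9.83), CCNB1 (11.2 and 5.48) and PCNA (8.95 and 5.02) were one-sided for H3K18pr (6.67%, against 9.83% of all protein-coding genes), and 0 for H3K18bu (against 1.66%). Of 86 ribosomal protein genes 19 (22.1%) were one-sided for H3K18pr, 0 for H3K18bu and 24 (27.9%) in all 4. Among those held by all 4, RPL35A had 16.2 and 12.3 in H3K18pr and 13.1 and 28.2 in H3K18bu, and RPL19 17.5, 11.3, 11.6 and 23.3 in the same order. Of 82 oxidative phosphorylation genes 11 (13.4%) were one-sided for H3K18pr and 1 (1.22%), NDUFB3, for H3K18bu, near the shares of all protein-coding genes. NDUFB3 had 3.78 and 6.75 in H3K18bu and was present in the whole list of H3K18pr replicate 1. Of 400 olfactory receptor genes, which are silent in most tissues, 0 held a region in any of the 4 libraries. Of all protein-coding genes, 60.5% likewise held none. Of the one-sided list members named here, input peaks lay at the starts of LAMC1, CD44, PKP3, ERRFI1, MAP2K1, TLE4, FZD1, FZD5, MAF, CDX2, KAT7, SIRT3, ACSS1, SLC16A1, EDEM1, MANF, PDIA4, PCNA and NDUFB3. Their part in these counts was not tested.

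Short motifs of transcription factors were counted in the 200 bp summit windows on both strands. TEAD (GGAATG) matched 9.57% and 9.65% of H3K18pr and 12.4% and 12.9% of H3K18bu windows, and AP-1 (TGANTCA) 4.06% and 4.58% against 5.64% and 7.37%. TCF/LEF (ATCAAAG) matched 1.74% and 1.89% against 2.81% and 3.19%, and HNF4 (CAAAGTCCA) 0.299% and 0.236% against 0.354% and 0.363%. KLF and ETS went the other way, with KLF (GGGNGGGGC) in 3.06% and 2.85% against 2.04% and 1.09% and ETS (CCGGAAG) in 2.167% and 1.83% against 1.41% and 0.866%. The marks were apart for these 6 motifs (two-sided exact permutation p = 0.333 each, adjusted 0.444 over 8 motifs). SMAD (CTGTCTGG, 1.41% and 1.34% against 1.44% and 1.01%) and NRF1 (GCGCATGCG, 0.0861% and 0.0363% against 0.0544% and 0.0227%) were not apart. HNF4 and TCF/LEF share the letters CAAAG, which can overlap.

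Windows 5 kb to either side of the same summits give the background of each library. On the log2 scale of summit over flank, AP-1 stood at −0.56 and −0.39 in H3K18pr and −0.10 and 0.26 in H3K18bu, and TCF/LEF at −0.57 and −0.45 against 0.13 and 0.16. KLF stood at 0.73 and 0.66 in H3K18pr and 0.18 and −0.57 in H3K18bu, and ETS at 1.46 and 1.15 against 0.80 and 0.21. At the starts of all genes, the share of 200 bp windows with a match was 5.32% for AP-1, 9.30% for TEAD, 1.77% for TCF/LEF, 0.208% for HNF4, 13.8% for KLF, 7.12% for ETS, 1.18% for SMAD and 1.37% for NRF1. The GC of the summit windows also differed between the marks, and its part in the motif shares was not tested.

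By chromosome, with those named whose ratio of the marks lay farthest from even, the H3K18pr libraries had more of their regions on chromosomes 9 (4.27% against 2.80%, means of 2), 16 (3.39% against 2.28%), 17 (6.90% against 4.89%), 22 (2.45% against 1.66%) and 3 (6.22% against 5.14%), and fewer on 18 (1.24% against 1.88%) and 14 (2.29% against 3.22%), with the marks apart on each. On chromosome 17, 467 regions were one-sided for H3K18pr and 71 for H3K18bu, while on chromosome 18 there were 59 and 96.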

How the data were processed

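ChIP-seq peak lists of 4 libraries were used, with those of H3K18ac (NaPr, NaBu, untreated), H4K12pr, H4K12bu and 3 inputs for placing. The authors trimmed reads, aligned them to hg38 and called peaks for each library on its own with MACS2 at a p-value threshold of 0.01, with blacklisted regions removed. The submitters' processing notes name bcl2fastq 2.17.1, cutadapt 1.8.1, Bowtie2 2.3.1 and MACS2 2.1.0. The deposited lists give each peak's fold enrichment, a ratio to local background, and its −log10 p-value and −log10 q-value as the authors' caller wrote them. These values depend on library depth and input, and the control of the input lists is not given in the sources used here. The study's own comparison of marks used reads, which were not analysed here.

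Groups came from the sample labels and run tags from file names. The number of regions was set by the shortest list, ranked by −log10 p with ties by fold. All 1412399 regions used lay within hg38 chromosome lengths, and those of a list never overlapped. Genes came from GENCODE 44. Code was tested on simulated intervals. Python 3.11.15, NumPy 2.4.6 and SciPy 1.17.1 were used. Tests were two-sided exact permutations over the 4 libraries, intervals were Wilson at 95% and cover counting error only.

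Gene names followed a rule: the 12 protein-coding one-sided H3K18pr genes with the highest fold (lower of the replicates) without an input peak at the start or a region in the whole H3K18bu lists, the 12 one-sided H3K18bu genes and the 6 genes of all 4 by the same measure, up to 4 one-sided members of each list, and the 3 widest one-sided regions of each mark. Further list members were named after their values were seen. Some genes that the rule names, 1 of the 12 H3K18pr genes among them, are not reported here. The members, gene lists and rules were chosen with earlier results of these data known.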

Additional observations from a re-analysis of the deposited data

How the results depend on the processing

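Equal numbers of regions, ranking, input peaks, windows and single libraries were varied. The H3K18pr minus H3K18bu difference kept its direction under every alternative run for GC (4.09 to 8.26 points) and for the share of summits downstream of starts (17.2 to 26.8 points, all of whose alternatives were chosen after seeing the data, as were those with the strongest 1000 regions). The promoter difference of 8.95 points reversed to −4.04 with all regions, −6.31 with q under 0.05 and −3.65 with the strongest 1000. The width difference of 739 bp reversed to −4 bp with q under 0.05, where the lists are unequal in number. The H3K18pr share of one-sided regions, 65.1%, moved to 92.1% with all regions, 62.9% with the strongest 8000, 98.03% with q under 0.05, 63.6% ranked by fold, 56.9% without regions over input peaks, 57.4% with 500 bp around summits and 61.2% with 50% overlap of both regions. It reversed without H3K18bu replicate 1 (43.6%) or replicate 2 (46.97%) and reached 75.4% without H3K18pr replicate 2, since a mark with 1 library needs only that library. Leaving out 1 library gave 43.6% to 75.4% for this share, 5.00 to 12.9 points for promoters, 583.5 to 894.5 bp for width, 5.52 to 8.26 points for GC, 19.3 to 26.8 points for summit side, 3229 to 4464 H3K18pr genes (4464 without H3K18pr replicate 2) and 579 to 1154 H3K18bu genes (791 without H3K18pr replicate 1, 862 and 1154 without H3K18bu replicates 1 and 2). H3K18pr genes, 2867, became 6954 with all regions, 1436 with the strongest 8000 and 8959 with q under 0.05, and H3K18bu genes, 479, became 86 with all regions and 24 with q under 0.05. Where the summit and not any part of a region had to lie in the window, there were 2419 H3K18pr and 540 H3K18bu genes. The lists give no depth, so a mark absent from a list may be below its threshold.

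Whether the replicate numbers pair the libraries is not stated in the labels. Deviations of equal numbers correlated at 0.0415 over gene starts, which cannot settle it with so few libraries. With the replicate block, the differences were 8.95 points for promoters, 739 bp for width, 6.89 points for GC and 23.1 points for summit side (exact sign-flip p = 0.5, the smallest possible), with no change of direction.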
